A study of Rattus norvegicus with 6 samples.

Results

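Chronic post-ischaemia pain (CPIP) is a rat model in which a tight ring around the hind limb stops its blood flow for some hours and is then released, so that the paw goes through ischaemia and reperfusion. It is used as a model of complex regional pain syndrome. The libraries compared here are bulk RNA-seq libraries of the dorsal root ganglia (DRG) L4 to L6 on the treated side, where the sensory neurons of the hind limb have their cell bodies, among satellite glia, Schwann cells, macrophages, blood vessels and the connective tissue capsule. All 4 libraries from rats with the ring, 2 labelled CPIP+Veh and 2 labelled CPIP+ETA, were set as one side against both libraries labelled Sham+Veh, so that all 6 of the 6 libraries of the series took part.

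All rats were labelled wild type, and the ring size is stated for male rats; strain and age are not stated in the labels used here. Under pentobarbital anaesthesia, CPIP rats wore an O-ring above the hind paw near the ankle for 3 h, and sham rats were anaesthetised only. Injections into the spinal canal (intrathecal) began on day 2 and were repeated daily: vehicle in the Sham+Veh and CPIP+Veh groups, and etanercept, a fusion protein of TNF receptor 2 that binds the cytokine TNF, in the CPIP+ETA group. Ganglia were taken on day 7. The design holds no sham group with etanercept, so every sham library carries vehicle injections. CPIP+Veh libraries differ from sham by the ring, and CPIP+ETA libraries by the ring and etanercept. The mean of the CPIP groups against sham therefore also carries part of any etanercept effect. The ring's part under etanercept was not tested on its own. Whether each library stands for 1 animal or a pool is not stated in the labels, so the p-values measure the spread between these libraries, which may be technical.

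As background, sensory neurons whose axons are damaged switch on a set of transcription factors, neuropeptides and growth proteins that ganglia with intact axons express at low levels. Ganglia also hold fibroblasts, which make collagens and other matrix proteins, and antigen-presenting cells, which carry MHC class II molecules.  The comparison asks which of these programmes were shared by both ring groups whatever was injected.

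The libraries held 18284891 to 19981081 deposited counts and 17773 to 17921 detected genes each, and 15531 of the 22864 genes in the table were abundant enough to test. CPM here stands for a gene's count relative to its library's size, with trimmed-mean (TMM) scaling, and is given in the order Sham+Veh 1 and 2, CPIP+Veh 1 and 2, CPIP+ETA 1 and 2; fold changes are on the log2 scale and come from edgeR's quasi-likelihood fit with Benjamini-Hochberg adjustment over all genes tested. The sensory neuron markers were high in every library (peripherin, Prph, 2114 to 2447 CPM), and the 6 spinal cord markers checked were each under 1 CPM in every library, from 1 count over all libraries for Slc32a1, Mnx1 and Olig2 to 56 for Slc6a5; the wider spinal cord list, of which 14 members were tested, summed to 108 to 149 CPM. The first principal component, 25.5% of the variance, did not separate the sides: CPIP+ETA 2 lay at -18.1, between the sham libraries at -29.5 and -4.7.

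In the comparison of 4 CPIP libraries with sham, 3 genes rose and none fell at an adjusted p under 0.05, which is 0.0193% of the genes tested. At an unadjusted p under 0.05, 404 genes were higher (2.6%) and 543 were lower (3.5%); DESeq2 called 23 higher and 17 lower, and limma-voom called 2 higher and 0 lower. All 4 CPIP libraries lay above both sham libraries for 1153 genes (7.42%) and below both for 1301 genes (8.38%). Most of those gaps were narrow. Libraries ordered without any effect also put a share of genes on one side, so the 1153 and 1301 alone are no measure of a shared change. That share is larger for 1 injection alone, where fewer libraries have to agree. For 34 genes (0.219%) the lowest CPIP library was at least 1.5-fold above the highest sham library, and for 19 genes (0.122%) the highest CPIP library was at least 1.5-fold below the lowest sham library. Of these, 18 and 8 carried provisional symbols. These counts use no floor on low libraries; with a floor of 3 counts the gap of Ptprh, one of the 34, is 0.30 on the log2 scale, which is under 1.5-fold.

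RT1-CE10 (gene ID 414792), a class I gene of the rat major histocompatibility complex (MHC), which belongs to the family that presents peptides from inside the cell to T cells, rose. Its level was 25.2 and 23.4 CPM in sham, 65.4 and 65.8 CPM in CPIP+Veh, and 61.1 and 51.0 CPM in CPIP+ETA. The CPIP and sham sides did not overlap, which the naming rule required, and the log2 fold change was 1.32 (SE 0.088, edgeR adjusted p = 0.0175). Each injection on its own gave a log2 fold change of 1.43 with vehicle and 1.21 with etanercept (unadjusted p = 0.0446 for the difference). The call was lost without Sham+Veh 1 (edgeR adjusted p = 0.0953), Sham+Veh 2 (0.218), CPIP+Veh 1 (0.0959) or CPIP+Veh 2 (0.127). The rat class I genes are near-identical copies, so reads of one may be counted in another, and how the authors counted such reads is not stated in the sources.

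The other genes that rose carry provisional symbols and were not found in the RefSeq gene table. LOC103690108 stood at 17.9 and 16.7 CPM in sham, 92.8 and 93.4 CPM in CPIP+Veh, and 93.1 and 86.5 CPM in CPIP+ETA, a log2 fold change of 2.40 (SE 0.064, edgeR adjusted p = 8.35e-05) that stayed called in every alternative tried. LOC103689931 stood at 2.17 and 5.69 CPM in sham, 59.3 and 60.3 CPM in CPIP+Veh, and 56.2 and 68.9 CPM in CPIP+ETA, a log2 fold change of 3.96 (SE 0.29, edgeR adjusted p = 0.0222). In both genes the 4 CPIP levels sat close together at a level well above sham. The call of LOC103689931 was lost without any one of the CPIP libraries (edgeR adjusted p = 0.0892 to 0.127), with a robust prior (0.186) and in limma-voom (0.0529), and leaving out Sham+Veh 1 gave a log2 fold change of 3.43 and leaving out Sham+Veh 2 one of 4.82.

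The genes next in line above sham did not pass in edgeR, while DESeq2 called Retsat, Capg, Fam134b, RT1-CE3, Pcdhb3, Gnb3 and Cpne7 higher. Genes named for the lowest p or widest gap over all genes had to have all 4 CPIP libraries on one side of sham. Their separation, here and below, is therefore no result. Retsat, which saturates retinol to dihydroretinol, was at 88.9 and 75.1 CPM in sham, 129.6 and 125 CPM in CPIP+Veh, and 130.4 and 129.7 CPM in CPIP+ETA (log2 fold change 0.65, SE 0.073, edgeR adjusted p = 0.14). The 4 CPIP values were within a few CPM of each other and above both sham values, and with CPIP fitted as one group of 4 the adjusted p was 0.0445. Capg, an actin filament capping protein, had a log2 fold change of 0.40 (edgeR adjusted p = 0.252). Fam134b, an endoplasmic reticulum protein whose loss causes a sensory neuropathy, had a log2 fold change of 0.60, Nit2 of 0.53, the class I gene RT1-CE3 of 0.52 and the clustered protocadherin Pcdhb3 of 0.98.

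Some low genes showed the wider gaps. Gnb3, a G protein beta subunit, had 7 counts in both sham libraries together and 118 in the 4 CPIP libraries, a depth-scaled ratio of 7.96 with a 95% counting interval of 3.75 to 20.2. Its level was 0.27 and 0.11 CPM in sham, 1.37 and 1.61 CPM in CPIP+Veh, and 1.46 and 1.63 CPM in CPIP+ETA. Both injections thus gave like values, well apart from sham (log2 fold change 2.95, edgeR adjusted p = 0.308). Cpne7, a calcium-dependent membrane-binding copine, was at 4.01 and 4.71 CPM in sham, 11.9 and 9.89 CPM in CPIP+Veh and 11.9 and 8.00 CPM in CPIP+ETA (log2 fold change 1.26, edgeR adjusted p = 0.337).

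Below sham, the gene with the lowest p was Gsn, gelsolin, which severs and caps actin filaments and is also secreted. It was at 605 and 609 CPM in sham, 345 and 375 CPM in CPIP+Veh, and 355 and 420.1 CPM in CPIP+ETA. All CPIP libraries lay well below both sham libraries, with a log2 fold change of -0.70 (SE 0.072, edgeR adjusted p = 0.113); the adjusted p was 0.0445 with CPIP as one group of 4 and 0.0433 without CPIP+ETA 2. Hnrnpab, an RNA-binding protein (log2 fold change -0.48, edgeR adjusted p = 0.136), Capns1, the small regulatory subunit of the calpain proteases (-0.57, 0.171), and Spg7, a mitochondrial protease (-0.35, 0.252), came next.

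Several genes below sham had larger differences under one injection. Ebf2, a transcription factor, had a log2 fold change of -0.35 with vehicle and -0.90 with etanercept. Cyp26b1, which degrades retinoic acid, had -0.24 and -0.91, and Ptch1, the Hedgehog receptor, -0.39 and -0.82. Zmiz2, a transcriptional coregulator, went the other way, with -1.05 under vehicle and -0.51 under etanercept. The unadjusted p of the difference between injections was 0.00196 for Ebf2, 0.000928 for Cyp26b1, 0.012 for Ptch1 and 0.00711 for Zmiz2. None of 15531 genes passed adjustment between CPIP+ETA and CPIP+Veh in edgeR (smallest adjusted p = 0.721), where 800 (5.15%) had an unadjusted p under 0.05.

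**Figure D1:**
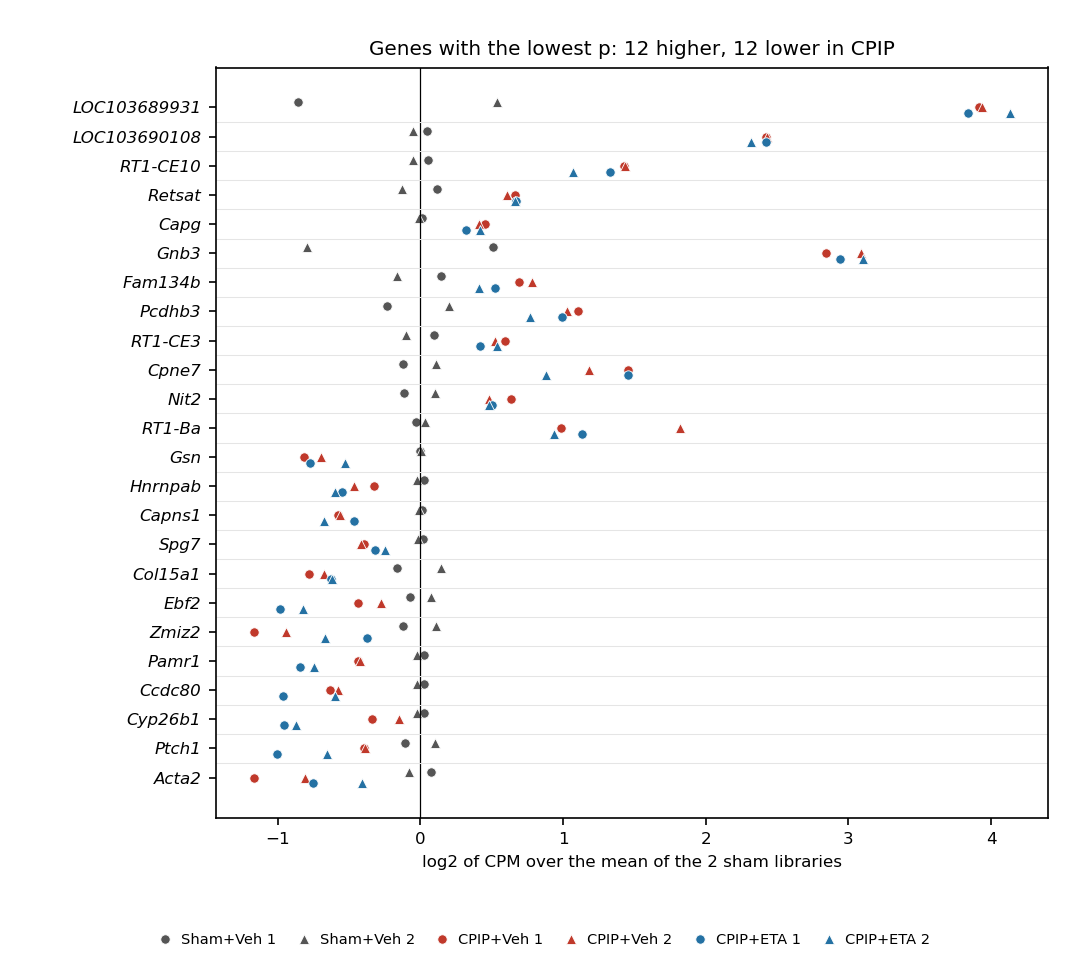
Log2 of the CPM over the mean of both sham libraries (x axis), 1 point per library, for 12 genes above sham and 12 below. Circles mark replicate 1 and triangles replicate 2. Called genes were taken first, then the lowest p among genes without a provisional symbol. All had to have sides that did not overlap and a higher-side mean of at least 1 CPM. In LOC103690108 the CPIP points sit between 86.5 and 93.4 CPM and the sham points at 16.7 and 17.9; in Gsn the CPIP points, 345 to 420.1 CPM, lie below both sham points.

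To describe groups of genes, 39 lists with 1102 entries were used, of which 995 were tested (927 different genes). The lists were chosen with earlier results of these data known, so their rank against all genes is no test. Over all genes tested the median log2 fold change was -0.0034, and 48.9% of genes were above 0. MHC class II genes had the highest share of members with all 4 CPIP libraries above both sham libraries, 10 of 17 (58.8%), against the 7.42% of all genes. Fibroblast and matrix genes had the highest share below, 25 of 44 (56.8%), against 8.38%. Red blood cell, skeletal muscle, mast cell and neutrophil markers had 0 members on either side, but some of their levels varied between libraries. Of the red blood cell markers 12 of 12 were above 0 (median 0.62), and their summed level was 300.4 to 314 CPM in sham, 244 to 331 CPM in CPIP+Veh and 406 to 554 CPM in CPIP+ETA. Of the skeletal muscle markers 18 of 22 were above 0 (median 0.62), with sums of 187 to 188 CPM in sham, 175 and 269.7 CPM in CPIP+Veh and 173 and 227 CPM in CPIP+ETA; the muscle enzyme Ckm was at 11.6 CPM in CPIP+Veh 2 and 8.71 CPM in CPIP+ETA 2 and at 0.81 to 3.67 CPM elsewhere. The 7 neutrophil markers tested had a median of 1.11 and summed to 9.58 to 12.3 CPM in sham and 8.71 to 20.1 CPM in CPIP. The part of these cells in the gene groups described here was not tested. Among the list genes, edgeR and limma-voom called RT1-CE10 alone, and DESeq2 also called RT1-Ba, RT1-A1, RT1-CE3, Prph, Tubb2b, Fam134b, Retsat and Capg higher and Gsn, Col15a1, Col1a2, Acta2, Eng and Alpl lower.

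**Figure D2:**
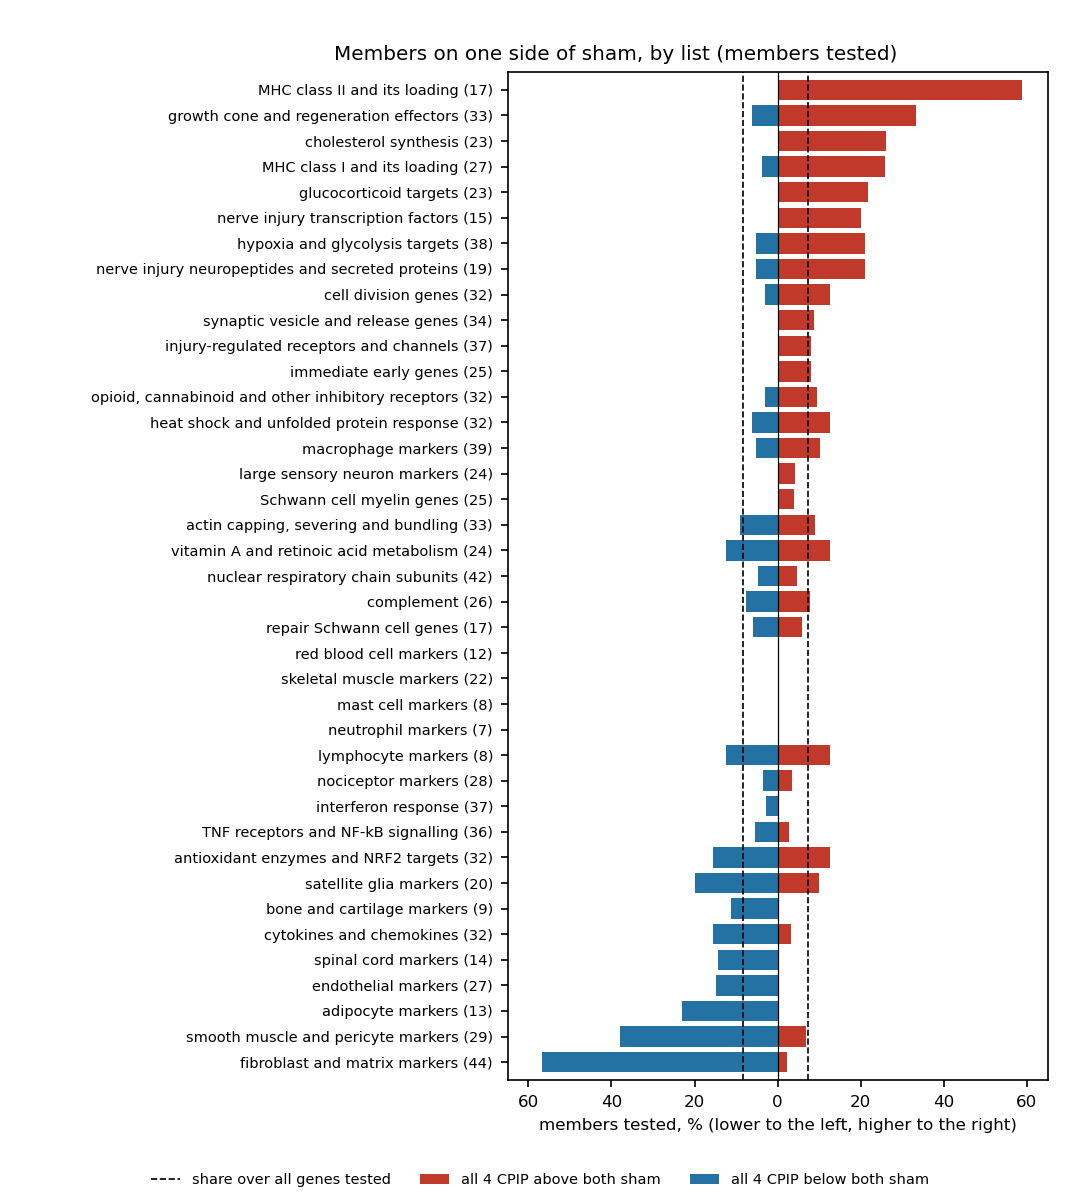
Percent of tested members with all 4 CPIP libraries below (left) or above (right) both sham libraries, for each of the 39 lists, with the number of members tested; dashed lines mark 8.38% and 7.42%, the shares over all genes. The longest bars are class II genes to the right (58.8%) and fibroblast and matrix genes to the left (56.8%).

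Fibroblast and matrix genes were mostly lower in CPIP. Of the 44 tested, 42 had a log2 fold change below 0, and the median was -0.30 (-0.26 with vehicle and -0.38 with etanercept). At an unadjusted p under 0.05 in edgeR, 18 were lower (3.5% of all genes were) and 0 higher (2.6% were). edgeR called none of them after adjustment, and DESeq2 called Gsn, Col15a1 and Col1a2 lower. With either injection alone against the same sham libraries, 31 members lay below sham with vehicle (19.5% of all genes did) and 32 with etanercept (18.5%). Leaving out 1 library at a time gave 25 to 32 members below sham and medians between -0.43 (without CPIP+ETA 2) and -0.22 (without CPIP+ETA 1). In bulk tissue, fewer cells of a type and less RNA per cell cannot be told apart.

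The fibrillar collagens of the list, which form the fibres of connective tissue, lay on the lower side. Col3a1 was at 1008 and 1059 CPM in sham, 711 and 929 CPM in CPIP+Veh, and 627 and 745 CPM in CPIP+ETA, a log2 fold change of -0.46. Col1a2, at 585 and 506 CPM in sham, 368 and 473 CPM in CPIP+Veh and 364 and 411 CPM in CPIP+ETA, had -0.43. Col1a1 (-0.50) had the CPIP+Veh 2 library just under Sham+Veh 1, both at 793 CPM, so there the sides all but touched. Col15a1, a collagen of basement membranes, was at 32.8 and 40.6 CPM in sham and between 21.3 and 23.9 CPM in the 4 CPIP libraries (log2 fold change -0.68, SE 0.097, edgeR adjusted p = 0.298).

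Among the collagen-associated proteins, biglycan (Bgn), a small proteoglycan, had a log2 fold change of -0.58, and fibrillin 1 (Fbn1), the scaffold of elastic microfibrils, -0.49. Mfap4, another microfibril protein, had -1.20, fibronectin (Fn1) -0.45 and the secreted factor Serpinf1 -0.45. Elastin itself, Eln, which was outside the list, was at 29.4 and 29.8 CPM in sham, 8.15 and 18.01 CPM in CPIP+Veh and 10.8 and 16.7 CPM in CPIP+ETA. Its sides did not overlap, which its choice by a wide gap required. Replicate 1 was the lower library in both CPIP groups (log2 fold change -1.14, SE 0.29, edgeR adjusted p = 0.68). The member above sham in all CPIP libraries was periostin, Postn, a matrix protein of remodelling tissue, with a log2 fold change of 0.33. Ogn was at 0 in all libraries.

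Outside the lists, other genes on the lower side were named for a low p or a wide gap, and edgeR called none of them. The naming rule asked that all CPIP libraries lie below sham, so that separation is no result. Ccdc80, a secreted matrix-binding protein, was at 20.4 and 19.8 CPM in sham and between 10.3 and 13.5 CPM in CPIP (log2 fold change -0.69, edgeR adjusted p = 0.337). Pamr1 had -0.61. Among genes with wide gaps on the lower side, C1qtnf3 had -1.44, the protocadherin Pcdhb6 -2.23, the transcription factor Zic4 -1.67 and Mmrn1, a secreted protein of lymphatic vessels and platelets, -1.91. Siglec5, a sialic acid-binding receptor of myeloid cells, had -1.31. Several of these values moved when 1 library was left out: without CPIP+ETA 2 that of C1qtnf3 was -2.44, without CPIP+Veh 2 that of Mmrn1 was -2.92, and without Sham+Veh 1 that of Pcdhb6 was -1.51. The wide-gap genes of this paragraph were at low levels, at most 6.66 CPM, the Siglec5 level in Sham+Veh 1.

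Markers of other non-neuronal cells lay lower in part. Of 29 smooth muscle and pericyte markers tested, 24 were below 0, with a median of -0.23. In all CPIP libraries 11 lay below sham (37.9%, against 8.38% of all genes) and 2 above, Pln and Higd1b (6.9%, against 7.42%). At an unadjusted p under 0.05 in edgeR, 7 were lower (3.5% of all genes were) and 0 higher (2.6% were). Leaving out Sham+Veh 2 raised the 11 to 18. Acta2, smooth muscle actin, was at 30.5 and 27.5 CPM in sham, 12.9 and 16.5 CPM in CPIP+Veh, and 17.2 and 21.8 CPM in CPIP+ETA (log2 fold change -0.77, SE 0.13, edgeR adjusted p = 0.456). The contractile genes Myl9 (-0.67), Tagln (-0.78) and Myh11 (-0.48) also lay below sham in all CPIP libraries. The summed level of the list nevertheless overlapped, at 2956 to 2966 CPM in sham, 2915 to 3051 CPM in CPIP+Veh and 2889 to 3007 CPM in CPIP+ETA.

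Endothelial markers had 4 of 27 members below sham (14.8%, against 8.38% of all genes) and 0 above, with a median of -0.13 (-0.044 without CPIP+ETA 1). With vehicle alone 12 lay below (19.5% of all genes did) and 0 above. With etanercept alone 5 lay below (18.5% of all genes did) and 4 above (17.2% did). Their summed level overlapped, at 589 and 626 CPM in sham, 565 and 541 CPM in CPIP+Veh and 533 and 645 CPM in CPIP+ETA. The 4 below were Eng, a co-receptor for TGF-beta family ligands (-0.55), the VEGF receptor Kdr (-0.37), the junction protein Cdh5 (-0.28) and Ramp2 (-0.16). Fat cell markers had 3 of 13 below (23.1%, against 8.38% of all genes) and 0 above (against 7.42%). Adiponectin, Adipoq, had 34 counts in both sham libraries together and 4 in the 4 CPIP libraries, a sham to CPIP depth-scaled ratio of 18 with a 95% counting interval of 6.42 to 69.8. Adipoq was at 0 in both CPIP+Veh libraries, and its sham level was 1.19 and 0.66 CPM. The median of the fat list was -0.074, and 0.024 without Sham+Veh 2.

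The summed level of the fibroblast and matrix list was 11017 and 11511 CPM in sham, 9412 and 10334 CPM in CPIP+Veh and 8419 and 9633 CPM in CPIP+ETA. That of the fat list was 507 to 560 CPM in sham, 490 to 497 CPM in CPIP+Veh and 500 to 547 CPM in CPIP+ETA, and Ucp1 was at 0 in all. Whether the amount of capsule, vessel and fat tissue left on each ganglion took part in the lower matrix levels was not tested.

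**Figure D3:**
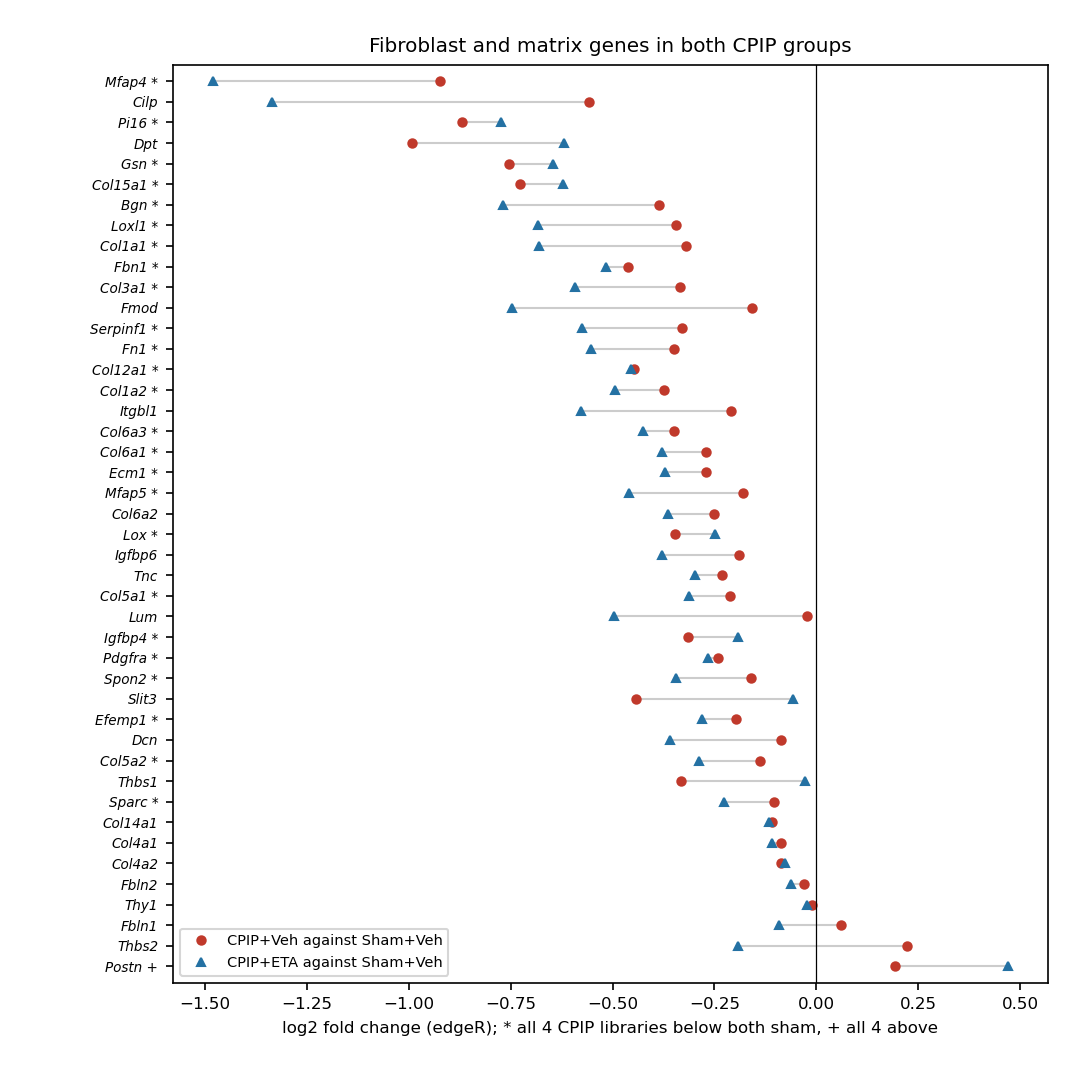
Log2 fold change against sham (x axis) of each tested fibroblast and matrix gene, with circles for CPIP+Veh and triangles for CPIP+ETA, which share the sham libraries; a star marks the 25 genes with all 4 CPIP libraries below both sham libraries and a plus the 1 above. Nearly all points lie left of 0, with medians of -0.26 and -0.38.

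Most MHC class II genes lay above sham in CPIP. Class II molecules are pairs of an alpha and a beta chain that present peptides taken up from outside the cell to helper T cells, and are carried mainly by macrophages, dendritic cells and B cells. Of the 17 genes of class II chains and peptide loading tested, 12 had a log2 fold change above 0 and 5 below. In all CPIP libraries 10 lay above sham (7.42% of all genes did) and none below (8.38% did). At an unadjusted p under 0.05 in edgeR, 7 were higher (2.6% of all genes were) and none lower (3.5% were). The median was 0.36, or 0.28 with vehicle and 0.29 with etanercept. edgeR called none after adjustment, and DESeq2 called RT1-Ba. The summed level was 690 and 672 CPM in sham, 832 and 969 CPM in CPIP+Veh and 881 and 721 CPM in CPIP+ETA, so the sides did not overlap.

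The chain genes had the larger differences. RT1-Ba, an alpha chain, was at 22.0 and 22.9 CPM in sham, 44.5 and 79.3 CPM in CPIP+Veh, and 49.1 and 43.0 CPM in CPIP+ETA. RT1-Bb, its beta chain partner, was at 14.9 and 15.5 CPM in sham, 31.6 and 65.2 CPM in CPIP+Veh, and 38.5 and 25.2 CPM in CPIP+ETA. Both genes thus had a high CPIP+Veh 2 library above 3 closer ones. Both were named for a wide gap, which required the lowest CPIP library to lie above both sham libraries. The log2 fold changes were 1.25 (SE 0.23, edgeR adjusted p = 0.516) and 1.37 (SE 0.32, 0.68); without CPIP+Veh 2 they were 1.01 and 1.06, and without CPIP+Veh 1 RT1-Ba was called (1.43, edgeR adjusted p = 0.0438).

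RT1-Da and RT1-Db1 form the second class II pair. RT1-Da was at 56.0 and 52.5 CPM in sham, 74.6 and 104 CPM in CPIP+Veh, and 88.4 and 61.4 CPM in CPIP+ETA, and RT1-Db1 had a log2 fold change of 0.77. The invariant chain Cd74, which guides class II molecules to the endosome, was at 142 and 152 CPM in sham, 195 and 250.4 CPM in CPIP+Veh, and 204 and 162 CPM in CPIP+ETA (0.46). In these genes CPIP+ETA 2 was the CPIP library nearest to sham. Ctss, the protease that trims the invariant chain, had a log2 fold change of 0.25, the peptide exchange subunit RT1-DMb 0.29 and Ciita, the master coactivator of class II transcription, 0.51.

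Class II promoters are known to share a set of boxes just before the start site, among them the Y box, an inverted CCAAT element. The 150 bases before the annotated start of the 4 chain genes that form both pairs are shown because all of these genes lay above sham; they are RefSeq sequences of build GRCr8, written 5′ to 3′ on the gene's strand, with the letters of the Y box searched, CTGATTGG, in capitals.
RT1-Ba (GRCr8 chr20:4576907-4577056, + strand): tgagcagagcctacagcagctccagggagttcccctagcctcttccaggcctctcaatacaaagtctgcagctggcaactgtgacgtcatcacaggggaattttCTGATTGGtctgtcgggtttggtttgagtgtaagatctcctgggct
RT1-Bb (GRCr8 chr20:4604119-4604268, - strand): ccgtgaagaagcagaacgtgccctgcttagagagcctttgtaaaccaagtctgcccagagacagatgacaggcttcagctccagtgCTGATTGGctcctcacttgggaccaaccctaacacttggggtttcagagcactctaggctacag
RT1-Da (GRCr8 chr20:4515265-4515414, + strand): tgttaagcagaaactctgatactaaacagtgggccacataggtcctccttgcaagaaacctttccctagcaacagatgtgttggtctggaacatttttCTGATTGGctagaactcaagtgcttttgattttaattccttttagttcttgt
RT1-Db1 (GRCr8 chr20:4560163-4560312, - strand): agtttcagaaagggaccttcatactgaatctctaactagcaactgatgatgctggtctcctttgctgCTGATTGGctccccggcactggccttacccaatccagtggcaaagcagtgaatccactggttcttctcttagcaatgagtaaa
The Y box letters began 46 bases before the start in RT1-Ba, 64 in RT1-Bb, 52 in RT1-Da and 83 in RT1-Db1. In windows of 250 bases before to 50 after the start, on either strand, 6 of the 15 class II list promoters found in the table held them (40.0%), against 1172 of 33469 promoters (3.5%). The cyclic AMP response element, TGACGTCA, was found in 1 of the 15 (6.67%), RT1-Ba, against 1.83% of all promoters. A match is a description of the letters in the window, and the data hold no measurement of binding there.

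Of class I genes and their peptide loading, edgeR called RT1-CE10, and DESeq2 called RT1-A1 and RT1-CE3 as well. Of 27 tested, 19 were above 0, and the median was 0.076 (0.15 without CPIP+Veh 2). In all CPIP libraries 7 lay above sham (25.9%, against 7.42% of all genes) and 1 below (3.7%, against 8.38%). Apart from RT1-CE10, RT1-A1 was at 53.9 and 48.5 CPM in sham, 78.6 and 82.9 CPM in CPIP+Veh, and 71.3 and 55.3 CPM in CPIP+ETA (log2 fold change 0.48, edgeR adjusted p = 0.678). RT1-A2 had 0.31, RT1-CE4 0.31 and Nlrc5, the class I counterpart of Ciita, 0.27. The one member below sham was RT1-T24-1 (-1.005). The interferon response list holds genes that are usually induced together with class I genes. It had 0 of 37 members above sham in all CPIP libraries and 1 below (2.7%, against 8.38% of all genes). Of these 37, 30 were above 0, with a median of 0.089; the medians were 0.29 with vehicle and -0.060 with etanercept, where 9 members lay below sham (18.5% of all genes did).

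The macrophage list was near the background of all genes. Of 39 tested, 4 lay above sham in all CPIP libraries (10.3%) and 2 below (5.13%). The summed level was 7449 and 7694 CPM in sham and 7203 to 7435 CPM in CPIP, so there every CPIP library was below both sham libraries. Aif1 (log2 fold change 0.20) and Cd68 (0.23), named after their values were seen, were among the 4 members above. Fcgr2b, an inhibitory antibody receptor, was at 1.68 and 2.19 CPM in sham and at 3.18 to 8.06 CPM in CPIP, while F13a1, a transglutaminase of resident macrophages, was at 11.4 and 8.97 CPM in sham and 5.28 to 8.27 CPM in CPIP. The lymphocyte list summed to 12.3 to 14.1 CPM in sham and 12.7 to 18.6 CPM in CPIP. The part of cell numbers in the class II levels was not tested.

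**Figure D4:**
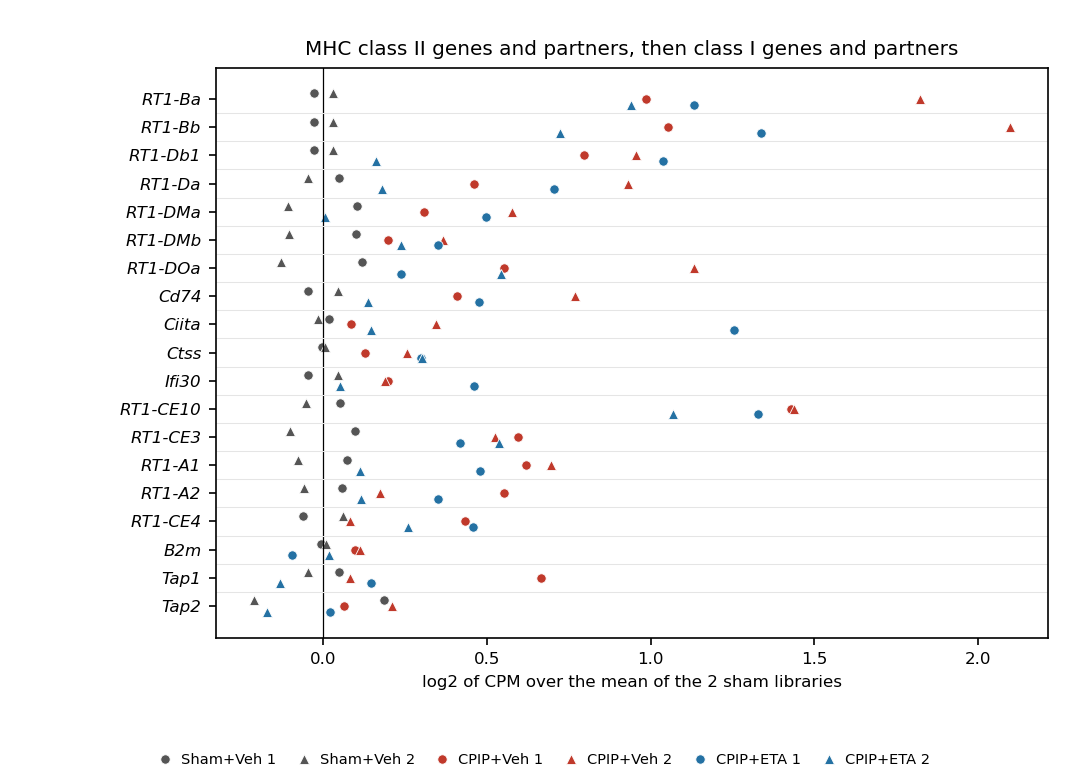
Log2 of the CPM over the mean of both sham libraries (x axis), 1 point per library, circles for replicate 1 and triangles for replicate 2, for MHC class II and class I genes and their partners. The gap is widest in RT1-CE10, RT1-Ba and RT1-Bb; RT1-Ba spans 43.0 to 79.3 CPM in CPIP against 22.0 and 22.9 CPM in sham.

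Genes of the nerve injury response lay above sham in part. Among 15 injury transcription factors, 3 lay above sham in all CPIP libraries (20%, against 7.42% of all genes) and none below (against 8.38%). The median was 0.094 (0.031 without CPIP+Veh 2 and 0.20 without Sham+Veh 1). Sox11, which drives regrowth of adult axons, was at 2.65 and 2.74 CPM in sham, 4.35 and 5.50 CPM in CPIP+Veh, and 3.78 and 3.49 CPM in CPIP+ETA (log2 fold change 0.65, SE 0.18, edgeR adjusted p = 0.704). Klf7 had 0.16. Cebpd had 0.67, and there the etanercept libraries were the higher ones (0.37 with vehicle and 0.97 with etanercept).

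Among 19 neuropeptides and secreted proteins, 4 lay above sham in all CPIP libraries (21.1%, against 7.42% of all genes) and 1 below (5.26%, against 8.38%). At an unadjusted p under 0.05, 7 were higher (2.6% of all genes were) and 0 lower. The median was 0.35, but 0.42 with vehicle and 0.11 with etanercept. With vehicle alone 11 lay above sham (17.6% of all genes did), and with etanercept alone 5 did (17.2%). Between CPIP+ETA and CPIP+Veh, 6 were lower and 1 higher at an unadjusted p under 0.05 (424 and 376 of 15531 genes were). Npy, a peptide that large sensory neurons make after axon damage, was at 0.32 and 0.60 CPM in sham, 6.08 and 35.8 CPM in CPIP+Veh, and 1.41 and 12.9 CPM in CPIP+ETA. The libraries of each CPIP group differed several-fold (log2 fold change 4.70, SE 1.4, edgeR adjusted p = 0.732, and 3.54 without CPIP+ETA 2). Npy was named for its wide gap, which required the lowest CPIP value to lie above both sham values. Reg3b, a secreted lectin, was at 0.81 and 0.93 CPM in sham, 2.48 and 4.14 CPM in CPIP+Veh, and 1.36 and 1.52 CPM in CPIP+ETA (1.32). Timp1, an inhibitor of matrix proteases, had 0.35 and the chemokine Ccl2 0.74.

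Other known injury genes were not above sham in all CPIP libraries. Atf3, the transcription factor most used as a sign of axon damage, was at 7.69 and 6.90 CPM in sham, 16.3 and 42.1 CPM in CPIP+Veh, and 6.20 and 23.1 CPM in CPIP+ETA. The peptide galanin, Gal, was at 5.47 and 3.89 CPM in sham, 7.49 and 14.0 CPM in CPIP+Veh, and 3.73 and 5.28 CPM in CPIP+ETA. In both genes CPIP+ETA 1 was below both sham libraries, so the difference was not shared. Vip had 0 and 1 counts in sham, 65 and 129 counts in CPIP+Veh, and 1 and 18 counts in CPIP+ETA, so the CPIP+ETA 1 library was at the sham level. Over the 4 CPIP libraries that is 213 counts against 1, a depth-scaled ratio of 101 with a 95% counting interval of 17.9 to 3992. Bdnf, a neurotrophin, was at 22.5 and 24.2 CPM in sham, 34.4 and 35.3 CPM in CPIP+Veh, and 23.6 and 29.2 CPM in CPIP+ETA; the CPIP+ETA 1 value lay inside the sham range.

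Growth cone and regeneration genes had 11 of 33 members above sham in all CPIP libraries (33.3%, against 7.42% of all genes). Below sham lay 2 (6.06%, against 8.38%), and the median was 0.12 (0.061 without CPIP+Veh 2). With vehicle alone 22 members lay above sham (17.6% of all genes did), and with etanercept alone 12 did (17.2%). Ecel1, a neuronal protease-like protein induced by axon damage, was at 2.17 and 2.35 CPM in sham, 5.62 and 12.9 CPM in CPIP+Veh, and 3.38 and 6.32 CPM in CPIP+ETA (log2 fold change 1.56, SE 0.43, edgeR adjusted p = 0.704). The tubulin-binding stathmin Stmn4 had 0.47, the stress gene Gadd45a 0.39 and the tubulin Tubb2b 0.23. Larger members were above sham by small amounts, such as Tubb3 with 0.12.

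Among 37 injury-regulated receptors and channels, 3 lay above sham in all CPIP libraries (8.11%), a share near that of all genes. Cacna2d1, the calcium channel subunit that gabapentin binds, was at 144 and 148 CPM in sham, 185 and 219 CPM in CPIP+Veh, and 159 and 175 CPM in CPIP+ETA (log2 fold change 0.33, edgeR adjusted p = 0.68). Gabra5, a GABA-A receptor subunit, was at 7.36 and 6.79 CPM in sham, 11.9 and 10.9 CPM in CPIP+Veh, and 7.46 and 7.95 CPM in CPIP+ETA. Gabra5 met the criterion in all 4 CPIP libraries, but the etanercept libraries were nearly at the sham level. The unadjusted p of the difference between injections was 0.00218 for Gabra5, 0.0191 for Cacna2d1, 0.00956 for Reg3b and 0.0179 for Stmn4, and none passed adjustment in edgeR.

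**Figure D5:**
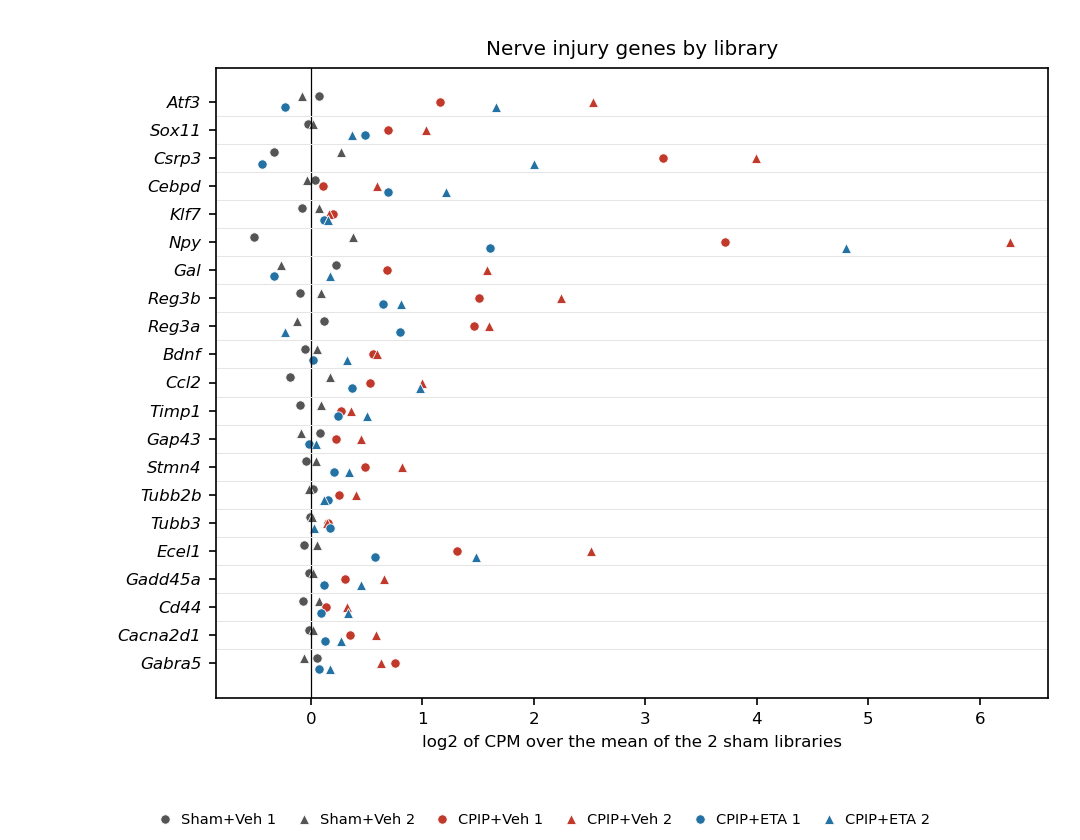
Log2 of the CPM over the mean of both sham libraries (x axis), 1 point per library, circles for replicate 1 and triangles for replicate 2, for nerve injury genes. Npy spans 1.41 to 35.8 CPM in CPIP against 0.32 and 0.60 CPM in sham, and the CPIP+Veh points lie above the CPIP+ETA points in Sox11, Reg3b, Stmn4 and Gabra5.

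Markers of the neurons themselves differed little. Of 28 nociceptor markers 1 lay above sham, Prph, and 1 below, Prdm12, with a median of 0.049 (0.014 without CPIP+Veh 2). Prph, an intermediate filament of small neurons, was at 2172 and 2114 CPM in sham and 2367 to 2447 CPM in CPIP, a log2 fold change of 0.16 (SE 0.037, edgeR adjusted p = 0.68). Prdm12, a transcription factor of the pain lineage, had -0.18, and the capsaicin receptor Trpv1 overlapped sham. Of 24 large neuron markers 1 lay above sham and 0 below, with a median of -0.0042. Of 25 myelin genes of Schwann cells, which wrap the axons, 1 lay above (4%) and 0 below. Of 20 markers of satellite glia, which enclose the neuron bodies, 2 lay above (10%) and 4 below (20%). The shares over all genes were 7.42% above and 8.38% below.

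Among metabolic lists, glycolysis and other hypoxia targets had 8 of 38 members above sham in all CPIP libraries (21.1%, against 7.42% of all genes). Below sham lay 2 (5.26%, against 8.38%). The differences were small: Eno1, enolase, was at 693 and 677 CPM in sham, 732 and 776 CPM in CPIP+Veh, and 834 and 764 CPM in CPIP+ETA (log2 fold change 0.18, edgeR adjusted p = 0.732), and the list's median was 0.037. Hexokinase 2, Hk2, had 0.38, Pkm 0.13 and Eno2 0.14. Cholesterol synthesis genes had 6 of 23 above (26.1%, against 7.42% of all genes) and 0 below (against 8.38%). Among the 6 were the regulator Srebf2 (0.17) and the enzyme Mvd (0.16). The median of the cholesterol list was 0.071, and 0.0039 without Sham+Veh 1.

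Of 24 vitamin A genes, 3 lay above sham in all CPIP libraries (12.5%, against 7.42% of all genes) and 3 below (12.5%, against 8.38%). Beside Retsat above, Cyp26b1 was at 12.7 and 12.2 CPM in sham, 9.82 and 11.2 CPM in CPIP+Veh, and 6.398 and 6.81 CPM in CPIP+ETA. Aldh1a1, which makes retinoic acid, was at 59.2 and 62.8 CPM in sham, 42.6 and 58.0 CPM in CPIP+Veh and 39.6 and 39.6 CPM in CPIP+ETA (log2 fold change -0.45). The retinoic acid receptor Rara had -0.21. The median of the list was -0.074, and 0.063 without Sham+Veh 2.

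Targets of the glucocorticoid receptor had 5 of 23 members above sham in all CPIP libraries (21.7%, against 7.42% of all genes). None lay below (8.38% of all genes did). The list's medians, however, were 0.022 with vehicle and 0.53 with etanercept. Tsc22d3 was at 250.3 and 245 CPM in sham, 250.4 and 261 CPM in CPIP+Veh, and 309 and 336 CPM in CPIP+ETA, so it met the criterion only by a hair in CPIP+Veh 1. Fkbp5, a chaperone that dampens the receptor, was at 34.2 and 36.9 CPM in sham, 35.9 and 37.3 CPM in CPIP+Veh and 59.0 and 76.0 CPM in CPIP+ETA, and overlapped. Between CPIP+ETA and CPIP+Veh, 10 members were higher at an unadjusted p under 0.05 (2.42% of all genes were), and none passed adjustment in edgeR. Nfkbia, the inhibitor of NF-kB, was at 17.2 and 17.1 CPM in sham, 18.6 and 26.8 CPM in CPIP+Veh, and 27.0 and 30.5 CPM in CPIP+ETA (0.58).

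The cytokine that etanercept binds was scarcely represented: Tnf had 4 to 9 counts in each library and was not tested. Its receptors overlapped sham, Tnfrsf1a with a log2 fold change of -0.074 (SE 0.051) and Tnfrsf1b with 0.33 (SE 0.21). Of 36 TNF receptor and NF-kB signalling genes, 1 lay above sham in all CPIP libraries and 2 below, among them Mlkl, the effector of necroptosis (-0.44), and the list's median was 0.0098. Of 32 cytokines and chemokines, 1 lay above, Ccl2 (3.12%, against 7.42% of all genes), and 5 below (15.6%, against 8.38%).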

How the data were processed

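Total RNA of 6 rat DRG libraries in 3 groups of 2 was sequenced on a BGISEQ-500, from preparations with an RNA integrity number of at least 8, per the labels' protocols. The authors deposited 1 table of expected counts, which are estimates and hold fractions of reads; the build Rnor 6.0 is named in the submitters' processing notes. Aligner and counting program, and how strand and multi-gene reads were handled, are not given in the sources. Of 22864 genes, 3441 were at 0 in all libraries after rounding, among them 2907 that were blank in all libraries and read as 0.

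Counts were rounded and tested with edgeR 4.0.16 in R 4.3.3: TMM scaling, filterByExpr by group (minimum count 10, minimum total 15), a quasi-likelihood fit with 1 coefficient per group (3 residual degrees of freedom), and the contrast of the mean of CPIP+Veh and CPIP+ETA minus Sham+Veh. The typical coefficient of variation between libraries of a group was 10.3%. The fit was tested on simulated data. Counting intervals are exact at 95% and cover counting error only. Library overlap was read from TMM-scaled CPM; the size of a gap, but no count of genes, used a floor of 3 counts per library. Alternatives included DESeq2 1.42.0, limma-voom (limma 3.58.1), other scalings and filters, a replicate block and leaving out each library. Promoters are from RefSeq (GRCr8) and were matched by symbol.

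Genes were named by call, then lowest p (up to 12 a direction, provisional symbols left out), widest gap (6 a direction) and the 3 lowest p of each of 18 lists, with the TNF genes; other genes were named after their values were seen. The comparison, members and lists were chosen with earlier results of these data known. Mitochondrially encoded genes were not used.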

Additional observations from a re-analysis of the deposited data

Results flagged for a closer look

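In 10 of the genes named, 1 of the 4 CPIP libraries stood apart from the other 3 by Dixon's test, which compares the gap to the nearest library with the whole range (critical value at 95% for 4 values exceeded); chance alone marks about 1 gene in 20, and 77 genes were looked at. CPIP+Veh 2 stood apart in RT1-Ba (79.3 CPM against 43.0 to 49.1, gap share 0.832), Siglec5 (1.11 against 2.99 to 3.24, 0.885), Aldh1a1 (58.0 against 39.6 to 42.6, 0.838) and Retsat (125 against 129.6 to 130.4, 0.848). CPIP+ETA 1 stood apart in Fcgr2b (8.06 against 3.18 to 3.39, 0.956), Ccdc80 (10.3 against 12.96 to 13.5, 0.841) and Lifr (169 against 156 to 158, 0.846). CPIP+Veh 1 stood apart in Nit2 (22.5 against 20.1 to 20.5, 0.840) and Kdr (20.05 against 17.9 to 18.2, 0.873), and CPIP+ETA 2 in LOC103690108 (86.5 against 92.8 to 93.4, 0.912). In RT1-Ba, Siglec5, Fcgr2b, Ccdc80, Lifr and Nit2 the far library lay further from sham than the other CPIP libraries. Without CPIP+Veh 2 the log2 fold changes of RT1-Ba and Siglec5 were 1.01 and -1.03 in place of 1.25 and -1.31, and without CPIP+ETA 1 that of Fcgr2b was 0.78 in place of 1.16.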

How the results depend on the processing

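With RLE, upper-quartile or library-total scaling, with no filter or a filter of 1 CPM in 2 libraries, edgeR again called 3 genes, and the 3 were the same genes. With CPIP as one group of 4 it called 6 (5 higher, 1 lower), and DESeq2 called 40 (23 higher, 17 lower). The tally of single-gene results that follows rests mostly on genes that were not called. Of the 77 genes named 3 were called, and only those 3 could lose a call. Many of the 77 were chosen with all 4 CPIP libraries on one side, which leaves little room for a change of direction. Of the single-gene results under all alternatives together, 1194 kept direction and side of the threshold, 27 passed it newly and 10 no longer did; none changed direction. Without 1 library at a time, 1 to 3 genes were called (1 to 2 higher, 0 to 1 lower). Asking for a margin of 1.2-fold between the sides left 91 genes above and 93 below sham, and 1.5-fold left 34 and 19. With 5 libraries in place of 6 the sides separated for 1660 to 3048 genes above and 1768 to 3239 below, since fewer libraries have to agree. Without 1 library the list medians ranged from 0.051 to 0.15 for class I, 0.031 to 0.20 for injury transcription factors, 0.061 to 0.16 for growth cone genes, 0.014 to 0.069 for nociceptor markers, 0.051 to 0.12 for macrophages, 0.0039 to 0.12 for cholesterol synthesis and -0.090 to 0.063 for vitamin A. The median of the fat cell list was -0.56 with no filter, as more of its low genes entered.

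Replicate numbers are shared by the groups, but across all genes tested same-numbered libraries did not deviate together: the correlations were 0.03 between Sham+Veh and CPIP+Veh, -0.11 between Sham+Veh and CPIP+ETA and 0.05 between CPIP+Veh and CPIP+ETA. In single genes they can: for Ckm, Mylpf, Myh4 and Npy replicate 2 was the higher library of each group. With the replicate number as a block edgeR called 3 genes, the same 3, and 1017 had an unadjusted p under 0.05. Depth limits genes such as Gnb3, Adipoq and Vip, for which counting intervals are given.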
